A study of Mus musculus with 8 samples.

Results

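Ndn, Magel2, Peg12 and Atp10a are 4 genes of the imprinted Prader-Willi region on mouse chromosome 7. Each has a single row, found by its symbol, among the 622 genes that the authors deposited, and their levels are described in 8 libraries of hemogenic endothelium, the endothelial cells from which blood cells arise. The cells were grown in culture from mouse embryonic stem cell lines of strain 129. The Runx1 knockout (ko) libraries came from the lines iDamko and Ainv18ko, and the libraries with functional Runx1 (wt) from the lines iDam and BryGFP. Each line has 2 libraries that the series describes as biological duplicates. The columns of iDam and iDamko carry Dam in their names, and those of BryGFP and Ainv18ko do not. Comparisons of lines within a genotype cannot separate this from other differences between the lines. All 8 libraries were made in the same way: FLK1-positive cells from d3.25 embryoid bodies spent 2 days in liquid blast medium before they were sorted as cKIT+ TIE2+ CD41- cells. RUNX1 is the transcription factor without which blood does not emerge from this endothelium, and the study compared ko with wt cells to ask which genes depend on it.

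Imprinted genes are transcribed mainly from the chromosome inherited from a single parent, according to DNA methylation set in the germ line. In the mouse, Ndn, Magel2 and Peg12 are read from the paternal chromosome, under the control of an imprinting centre at the start of Snrpn, and loss of the paternal copy of the matching human region causes Prader-Willi syndrome. Atp10a, at the other side of Snrpn, has been reported as maternally expressed in some studies and as expressed from both copies in others. The region is best known from neurons, but Ndn also restrains the cycling of blood stem cells in the mouse. The values here do not separate the parental copies.

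Ndn (ENSMUSG00000033585) spans chr7:62346569-62350262 on the plus strand of the GRCm38 build, and Magel2 (ENSMUSG00000056972) spans chr7:62377010-62381640 on the same strand. Peg12 (ENSMUSG00000070526) lies at chr7:62461871-62464510 on the minus strand. Each of these 3 genes has 1 annotated exon. Atp10a (ENSMUSG00000025324), a gene with many exons, spans chr7:58656166-58829420 on the plus strand. It starts 3.69 Mb before the start of Ndn. RefSeq places 9 protein-coding genes from the start of Atp10a to the end of Peg12, a span of 3.81 Mb, and 4 of them are in the table. Ube3a, Snrpn, Snurf, Mkrn3 and Gm51483 were not analysed here. The nearest other genes of the table are Svip, 6.65 Mb before Atp10a, and Akap13, 12.99 Mb after Peg12. An annotated noncoding gene, Gm32061, overlaps both Ndn and Magel2 on the opposite strand, and the sources used here do not state whether reads were counted by strand.

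**Figure D1:**
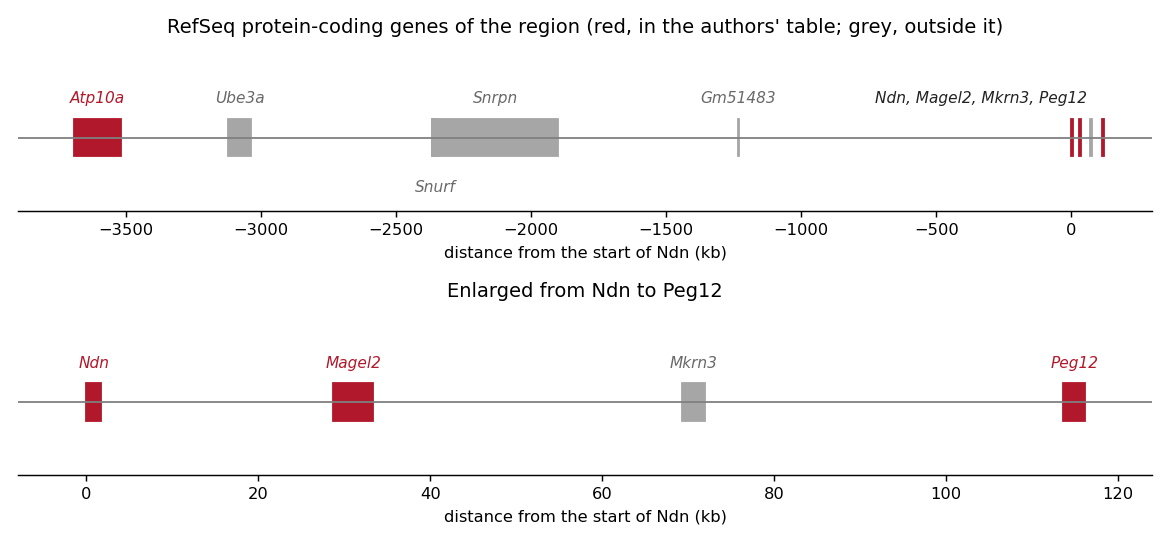
Position of the RefSeq protein-coding genes between Atp10a and Peg12, as distance in kb from the start of Ndn; red boxes are genes in the authors' table and grey boxes genes outside it. The lower panel enlarges the 116.2 kb from Ndn to Peg12, in which Ndn, Magel2 and Peg12 are red and Mkrn3 is grey.

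The 250 bases before the 1 start per gene used here from RefSeq were taken (GRCm38.p6, written in the direction of the gene). They were searched for the RUNX core letters TGTGGT and TGCGGT on both strands. Capitals mark these letters or their reverse complement. The start used for Ndn lies inside its wider GENCODE span. The Atp10a window also lies inside the gene, since the RefSeq span of Atp10a begins earlier, at position 58656142.
Ndn, chr7:62348027-62348276, plus strand: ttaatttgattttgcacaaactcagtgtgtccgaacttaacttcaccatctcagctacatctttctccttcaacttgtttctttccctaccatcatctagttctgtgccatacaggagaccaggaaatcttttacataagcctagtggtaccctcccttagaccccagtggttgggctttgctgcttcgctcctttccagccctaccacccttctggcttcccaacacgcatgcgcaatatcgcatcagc
Magel2, chr7:62376729-62376978, plus strand: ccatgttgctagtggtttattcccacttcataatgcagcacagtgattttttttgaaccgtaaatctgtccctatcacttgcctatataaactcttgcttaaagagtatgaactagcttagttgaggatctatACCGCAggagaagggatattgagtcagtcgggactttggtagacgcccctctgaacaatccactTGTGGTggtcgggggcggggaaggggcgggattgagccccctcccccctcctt
Peg12, chr7:62464511-62464760, minus strand: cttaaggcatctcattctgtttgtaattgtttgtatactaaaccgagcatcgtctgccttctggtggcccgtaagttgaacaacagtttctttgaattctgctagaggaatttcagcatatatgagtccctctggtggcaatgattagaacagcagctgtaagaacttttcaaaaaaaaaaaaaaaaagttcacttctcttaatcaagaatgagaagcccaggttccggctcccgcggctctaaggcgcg
Atp10a, chr7:58657952-58658201, plus strand: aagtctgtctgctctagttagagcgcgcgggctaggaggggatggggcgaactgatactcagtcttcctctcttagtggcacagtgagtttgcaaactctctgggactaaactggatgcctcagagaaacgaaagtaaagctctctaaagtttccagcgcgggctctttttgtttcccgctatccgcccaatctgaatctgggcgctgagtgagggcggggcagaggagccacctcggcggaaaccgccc
The Magel2 window held TGTGGT 48 to 53 bases before the start and the reverse complement of TGCGGT 112 to 117 bases before it. The Ndn, Peg12 and Atp10a windows held neither. Of all 32851 RefSeq windows of the same length, 18.6% held at least 1 of the cores, 14.0% TGTGGT and 5.10% TGCGGT, so a match is common and is a description of the letters alone. CG occurred 5 times in the Ndn window, 7 times for Magel2, 8 times for Peg12 and 14 times for Atp10a, against a median of 6 and quartiles of 2 and 16 over all windows.

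Levels are given as RPKM, read counts scaled to gene length and to the library's total. The steps of the deposited values imply totals of 42276373 to 58927823 reads per library, and on these totals all 32 values of the 4 genes came out as whole reads, within 4e-07 of a read. Neither Runx1 itself nor the markers used for sorting (Kit, Tek, Itga2b) were analysed here, so genotype and sort rest on the labels. Every gene of the table had been chosen by the authors for differing between ko and wt, with a false discovery rate (FDR) under 0.05 against iDam and against BryGFP, the same 4 ko libraries serving in both. The ko and wt levels of the 4 genes are therefore a description, with no test. In these bulk samples, fewer cells of a type and less RNA per cell cannot be told apart.

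All 4 genes were lower in ko cells. Their ko and wt libraries did not overlap, with every ko library below every wt library, as was so for 383 of the 622 genes (61.6%). Counting either direction, ko and wt libraries did not overlap in 99.4% of the table. In the authors' deposited table, 62.2% of genes were lower in ko in both comparisons. Mean levels in ko cells were 53.1% of the wt mean for Ndn, 39.5% for Peg12, 28.8% for Atp10a and 27.7% for Magel2. Leaving out any 1 library kept these shares at 50.3% to 56.4% for Ndn, 35.5% to 44.5% for Peg12, 25.6% to 34.2% for Atp10a and 22.3% to 34.3% for Magel2.

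Ndn encodes necdin, a growth-restraining protein of the MAGE family that is abundant in neurons. It was at 15.5 and 22.0 RPKM in iDamko and 17.9 and 20.2 RPKM in Ainv18ko, against 36.9 and 37.1 RPKM in iDam and 34.6 and 33.5 RPKM in BryGFP. The wt libraries lay within a narrow band, and the iDamko libraries were the lowest and the highest of the ko group. Mean levels were 18.9 ± 2.83 RPKM in ko cells and 35.5 ± 1.75 RPKM in wt cells (SD, n = 4 each). Between 1200 and 3234 reads stood behind each value, so counting error was small. The counting intervals of the iDamko libraries, 14.6 to 16.4 and 21.0 to 22.9 RPKM (exact Poisson, 95%), did not overlap. In the authors' deposited table, Ndn was 1.85-fold lower in ko against iDam (FDR 0.00171) and 1.78-fold lower against BryGFP (FDR 0.00228). Those folds ranked 377 and 372 among the 387 genes lower in ko, near the smallest, while the median of these genes was 3.87-fold against iDam and 4.23-fold against BryGFP.

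Magel2, an intronless neighbour of Ndn, encodes another MAGE protein, which in human cells assists a ubiquitin ligase in endosomal protein sorting. It was the scarcest of the 4 genes in 7 of 8 libraries, at 0.114 and 0.0400 RPKM in iDamko and 0.155 and 0.0810 RPKM in Ainv18ko, against 0.553 and 0.309 RPKM in iDam and 0.270 and 0.273 RPKM in BryGFP. The first iDam library stood above the other wt libraries, which lay close together. These values rest on 25, 11, 32 and 16 reads in the ko libraries, against 137, 61, 56 and 66 reads in the wt libraries. The counting interval of the highest ko library, 0.106 to 0.218 RPKM, overlapped that of the lowest wt library, 0.204 to 0.351 RPKM. Mean levels were 0.0974 ± 0.0487 RPKM in ko cells and 0.351 ± 0.136 RPKM in wt cells (SD, n = 4 each). By the authors' deposited table, the ko level of Magel2 was 4.18-fold below iDam (FDR 0.000747) and 2.74-fold below BryGFP (FDR 0.0443). The FDR against BryGFP was near the threshold of 0.05, with 16 genes of the table above it.

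Peg12, also called Frat3, encodes a protein of the FRAT family, whose members bind the kinase GSK3 and favour Wnt signalling. It was at 1.05 and 1.96 RPKM in iDamko and 1.23 and 1.78 RPKM in Ainv18ko, against 5.10 and 4.05 RPKM in iDam and 3.12 and 2.98 RPKM in BryGFP. Both iDam libraries were above both BryGFP libraries, while the ko lines overlapped. Mean levels were 1.50 ± 0.435 RPKM in ko cells and 3.81 ± 0.982 RPKM in wt cells (SD, n = 4 each), with 130 to 305 reads per ko library and 366 to 715 reads per wt library. By the authors' deposited table, the ko level of Peg12 was 2.89-fold below iDam (FDR 1.83e-05) and 2.00-fold below BryGFP (FDR 0.0137).

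Atp10a encodes a flippase, an enzyme that moves phospholipids across the cell membrane. It was at 0.101 and 0.282 RPKM in iDamko and 0.230 and 0.302 RPKM in Ainv18ko, against 0.737 and 1.16 RPKM in iDam and 0.493 and 0.786 RPKM in BryGFP. The wt lines overlapped, and the first iDamko library was the lowest of all. Mean levels were 0.229 ± 0.0904 RPKM in ko cells and 0.795 ± 0.277 RPKM in wt cells (SD, n = 4 each), with 26 to 91 reads per ko library and 120 to 269 reads per wt library. By the authors' deposited table, the ko level of Atp10a was 3.90-fold below iDam (FDR 2.48e-05) and 2.78-fold below BryGFP (FDR 0.00552).

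**Figure D2:**
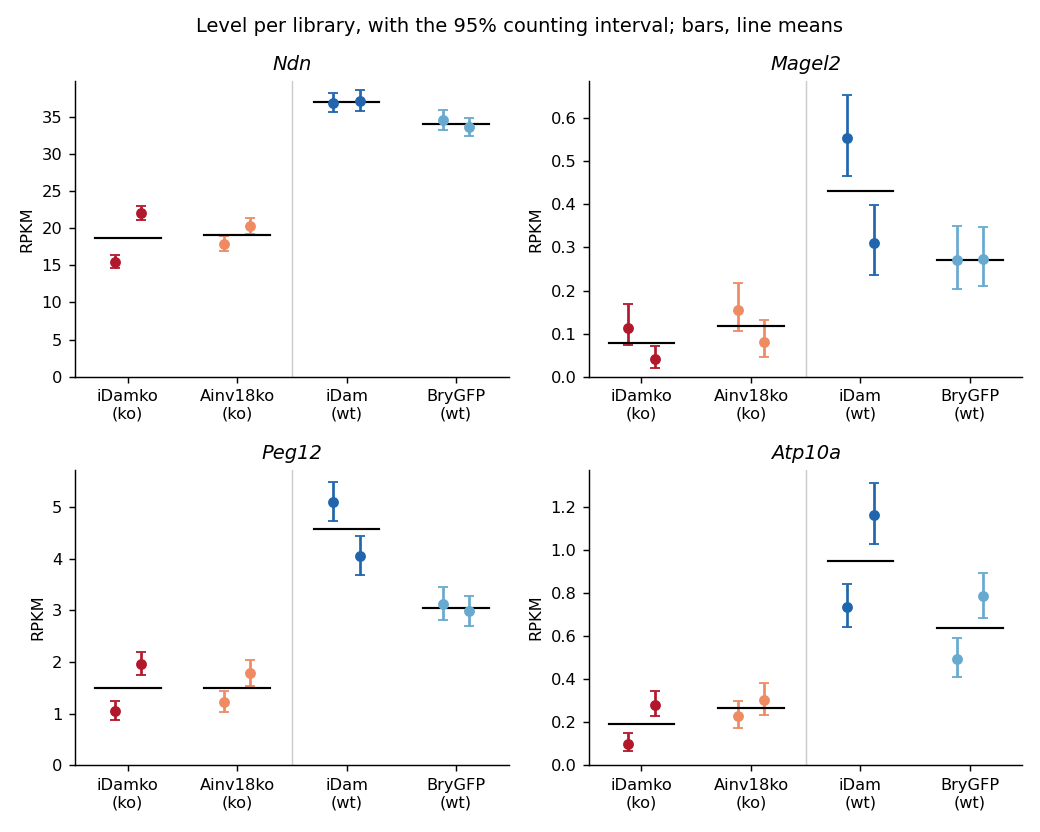
RPKM of each gene in each library by line, ko lines left and wt lines right, with 1 point per library, its 95% counting interval (exact Poisson) and a bar at the line mean. Every ko point lies below every wt point, and the iDam means (37.0 for Ndn, 0.431 for Magel2, 4.58 for Peg12 and 0.950 RPKM for Atp10a) are the highest of the 4 lines.

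Per length, Ndn was the most abundant of the 4 genes in all 8 libraries and Peg12 the next. Ndn stood at the 87.0th to 89.1st percentile of the table's genes in the ko libraries and at the 92.9th to 94.5th in the wt libraries. Atp10a was above Magel2 in every library but the first of iDamko, where they had 26 and 25 reads. As a share of the Ndn level, Peg12 was at 6.78% to 8.93% in ko libraries and 8.88% to 13.8% in wt libraries, so the groups overlapped narrowly. Magel2 was at 0.182% to 0.864% of Ndn in ko libraries and 0.781% to 1.50% in wt libraries, and Atp10a was at 0.654% to 1.49% of Ndn in ko libraries and 1.43% to 3.13% in wt libraries, so these groups overlapped too.

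The 2 libraries of each ko line differed alike for 3 of the genes. Across genes of the table the difference between libraries correlated at 0.69 between iDamko and Ainv18ko, so a shared direction is not particular to these genes. In both ko lines the library with more Ndn also had more Peg12 and more Atp10a, by 1.42-fold, 1.87-fold and 2.79-fold in iDamko and by 1.13-fold, 1.45-fold and 1.31-fold in Ainv18ko. Magel2 went the other way, at 0.351 of its level in the other iDamko library and 0.524 of that in the other Ainv18ko library. In Ainv18ko Magel2 had 32 and 16 reads, with overlapping counting intervals of 0.106 to 0.218 and 0.0463 to 0.132 RPKM. Those of Atp10a in Ainv18ko overlapped too. In the wt lines Ndn hardly differed between libraries, with ratios of 1.01 in iDam and 0.970 in BryGFP, while Atp10a differed by 1.58-fold in iDam and 1.59-fold in BryGFP.

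Differences between lines of 1 genotype were not the criterion for choosing the genes. The choice used the same libraries, each wt line having to differ from the ko libraries, so these tests are not free of it. The differences were tested with limma on log2(RPKM + 1) over the 360 genes whose mean reached 1 RPKM. Ndn and Peg12 passed this filter. Magel2 and Atp10a did not, and were tested in a fit of all 622 genes, where the added 1 understates the change of such weakly expressed genes. None of the 4 genes passed an adjusted p of 0.05 in any of the 3 comparisons, a count of 0 of 12 tests, and 0 of 12 had an unadjusted p under 0.05 by limma (lowest 0.0813). Over the 360 genes, 125 had an unadjusted p under 0.05 for iDam over BryGFP, 19 for iDamko over Ainv18ko and 83 for the difference of the ko effects. Over the 622 genes these counts were 192, 22 and 127. The labels do not say that the 2 libraries of a line came from separate cultures beyond the word biological, so the p-values measure the spread between these libraries.

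Between the wt lines, all 4 genes had higher means in iDam than in BryGFP, by 1.09-fold for Ndn, 1.59-fold for Magel2, 1.50-fold for Peg12 and 1.49-fold for Atp10a. By limma the log2 difference of iDam over BryGFP was 0.12 ± 0.22 for Ndn (SE; adjusted p = 0.804; 95% interval -0.38 to 0.61) and 0.46 ± 0.23 for Peg12 (adjusted p = 0.214; interval -0.07 to 0.98). In the fit of all genes it was 0.17 ± 0.09 for Magel2 (adjusted p = 0.282) and 0.25 ± 0.15 for Atp10a (adjusted p = 0.329). With 0.1 in place of 1 added to the RPKM, the limma intervals were -0.30 to 1.25 for Magel2 and -0.41 to 1.42 for Atp10a. All of these intervals include 0. The size rests on single libraries: on log2(RPKM + 1) the Magel2 difference was 0.04 without the first iDam library and 0.29 without the second, and that of Atp10a 0.41 and 0.09. Without the first or second BryGFP library, Atp10a gave 0.12 and 0.38. In this comparison 91 genes passed of 360 (25.3%), with 22 higher and 69 lower in iDam, and 133 of 622 (21.4%, or 15.4% with 0.1 added). Under quantile normalization the split was 27 higher and 49 lower.

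Between the ko lines, Ndn was at 18.7 ± 4.60 RPKM in iDamko and 19.1 ± 1.64 RPKM in Ainv18ko, and Peg12 at 1.50 ± 0.645 RPKM in iDamko and 1.50 ± 0.390 RPKM in Ainv18ko (SD, n = 2 each). Magel2 was at 0.0771 ± 0.0524 RPKM in iDamko and 0.118 ± 0.0520 RPKM in Ainv18ko, and Atp10a at 0.192 ± 0.128 RPKM in iDamko and 0.266 ± 0.0506 RPKM in Ainv18ko (SD, n = 2 each). By limma the log2 difference of iDamko over Ainv18ko was -0.04 ± 0.22 for Ndn (adjusted p = 1; interval -0.54 to 0.45) and -0.01 ± 0.23 for Peg12 (adjusted p = 1; interval -0.54 to 0.51). It was -0.05 ± 0.09 for Magel2 and -0.09 ± 0.15 for Atp10a in the fit of all genes (limma, adjusted p = 1 for each), and with 0.1 added the intervals were -1.09 to 0.47 for Magel2 and -1.31 to 0.52 for Atp10a. Here 13 genes passed of 360 (3.61%) and 10 of 622 (1.61%, or 2.73% with 0.1 added).

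For each gene, the ko mean as a share of the wt mean was lower for iDamko against iDam than for Ainv18ko against BryGFP. The cell line labels do not say that iDamko was made from iDam, or Ainv18ko from BryGFP. In either pair, loss of Runx1 and other differences between the lines cannot be told apart. Ndn in iDamko was at 50.6% of iDam and in Ainv18ko at 55.9% of BryGFP, and Peg12 at 32.9% and 49.3% for these pairs. Atp10a was at 20.2% and 41.6%, and Magel2 at 17.9% and 43.4%. The limma test of the difference, iDamko minus iDam less Ainv18ko minus BryGFP, gave log2 values of -0.16 ± 0.31 for Ndn (adjusted p = 0.916; interval -0.86 to 0.54) and -0.47 ± 0.33 for Peg12 (adjusted p = 0.511; interval -1.21 to 0.27). For Magel2 it was -0.22 ± 0.13 (adjusted p = 0.431) and for Atp10a -0.34 ± 0.21 (adjusted p = 0.457), again by limma over all genes. With 0.1 added the intervals were -1.88 to 0.31 for Magel2 and -2.20 to 0.40 for Atp10a. For Peg12 the difference on log2(RPKM + 1) was -0.20 without the first iDamko library, -0.74 without the second, and -0.31 without the second Ainv18ko library. For Magel2 it was -0.10 without the first iDam library and -0.34 without the second, and for Atp10a -0.50 and -0.18. Without the first BryGFP library, Atp10a gave -0.21. Over the 360 genes 35 passed (9.72%), with 22 above and 13 below 0, and over the 622 genes 36 passed (5.79%, or 5.95% with 0.1 added). The split was 20 and 24 under quantile normalization and 13 and 19 with 0.1 added.

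**Figure D3:**
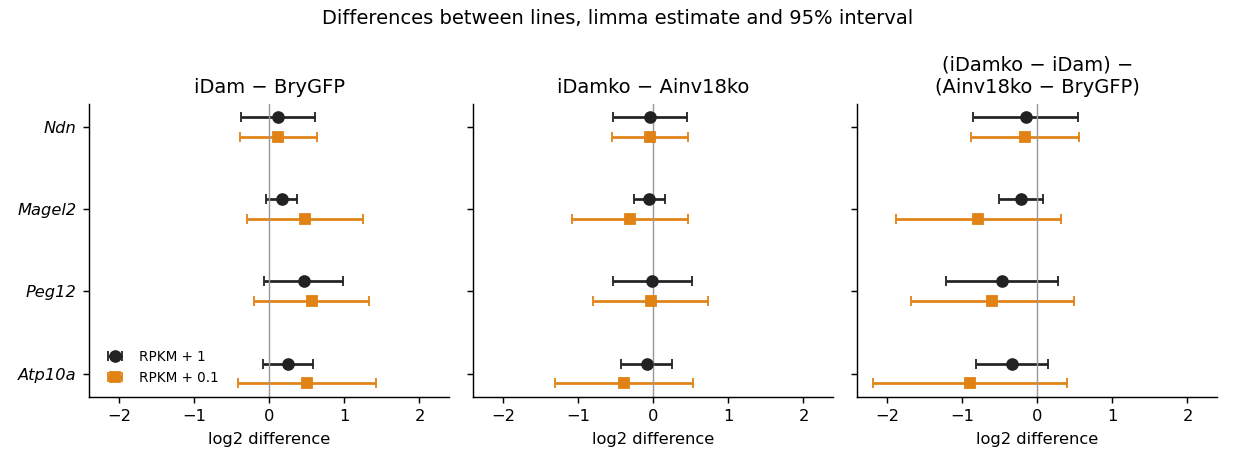
Log2 differences between lines for the 4 genes, as limma estimates with 95% intervals, for iDam over BryGFP, iDamko over Ainv18ko and the difference of the ko effects; black circles use RPKM + 1 and orange squares RPKM + 0.1. Every interval includes 0, and those of Magel2 and Atp10a widen with the smaller addition.

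Of a list of 81 imprinted genes, chosen with earlier results of these data known, 13 were in the table, in 14 rows. All 14 rows were lower in ko, where 62.2% of the whole table was. They are not 14 separate observations. Among them are the 4 region genes, Rian is listed both as a snoRNA and as a lincRNA, and Mir675 lies inside H19. The region's own list held 16 of the 81 names, and only Ndn, Magel2, Peg12 and Atp10a of them were in the table. By the ratio of mean RPKM, the 4 region genes kept the highest shares of wt among the 14 rows, 27.7% to 53.1%, and the other 10 rows were at 0.484% to 21.9%. The median fold by which the authors' deposited table has the 4 genes lower in ko was 3.36 against iDam and 2.34 against BryGFP, and that of the other 10 rows 17.8 and 67.5, with medians taken on the log scale. On the same chromosome 7, the noncoding RNA gene H19 was at 3.76 ± 2.69 RPKM in ko cells and 62.2 ± 27.2 RPKM in wt cells (SD, n = 4 each). Mir675, the miRNA gene that lies inside H19 and may share reads with it, was at 2.92 ± 2.04 RPKM in ko cells and 54.8 ± 20.6 RPKM in wt cells (SD, n = 4 each). Away from chromosome 7, Grb10, which encodes an adaptor that restrains insulin and growth factor signalling, had the lowest share by the means over both lines, at 0.484% of wt. Klf14, a transcription factor gene, had the highest, at 21.9%. The order differed between the pairs of lines. In iDamko against iDam, Klf14 was at 35.0%, above Peg12, Atp10a and Magel2, and Slc22a3 at 25.1%, above Atp10a and Magel2. In Ainv18ko against BryGFP, both were below all 4 region genes, at 17.0% for Klf14 and 10.1% for Slc22a3. Grb10 was the lowest in neither pair, since Rian, Meg3 and Mirg were lower in iDamko against iDam and Nnat in Ainv18ko against BryGFP.

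**Figure D4:**
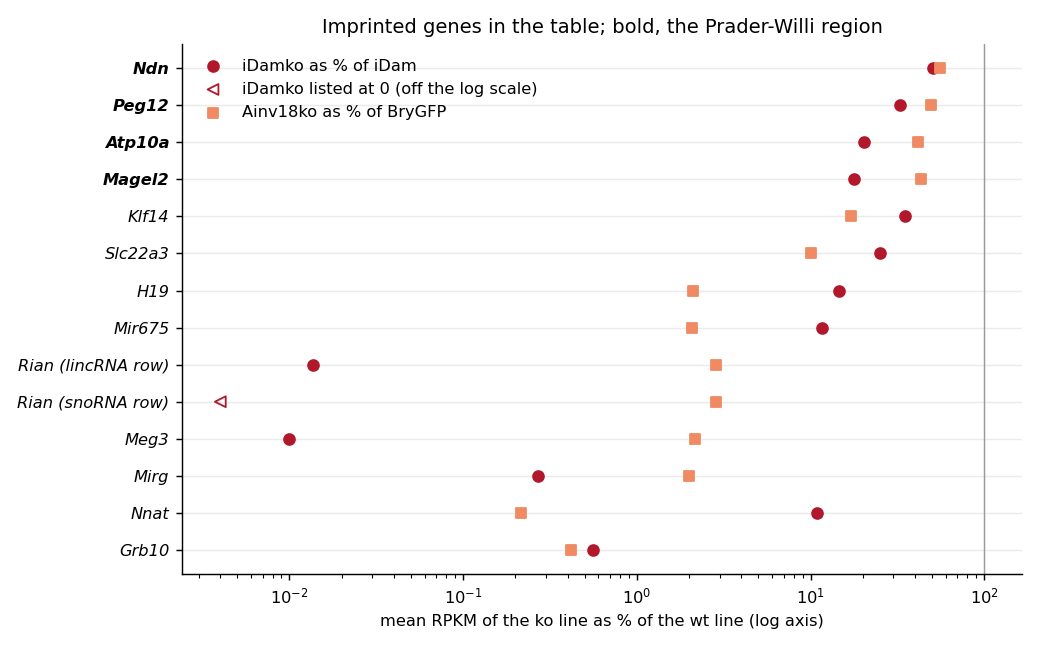
Mean RPKM of the ko line as a percentage of the wt line (log axis) for the 14 imprinted rows of the table, with circles for iDamko against iDam and squares for Ainv18ko against BryGFP; an open triangle marks a row listed at 0 in iDamko. Ndn, Peg12, Atp10a and Magel2, in bold, lie between 17.9% and 55.9% in both pairs, and all points lie left of 100%.

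The genes of the table whose pattern over the 8 libraries was most like each gene were found from the root mean square difference of log2(RPKM + 1) after removing each gene's own mean, among the 360 genes. For Ndn they included Sipa1l2 (0.11) and Gimap9 (0.11), against 0.46 for the variation of Ndn itself. For Peg12 they were Fzd1, which encodes a Wnt receptor (0.13), Mbnl3 (0.14) and Ndn (0.15), against 0.52 for Peg12 itself, so Ndn was among the 3 most similar genes in the table. For Atp10a they were Gria3 (0.14), Car13 (0.14) and BC026585 (0.15), against 0.31 for Atp10a itself. For Magel2, whose own variation was 0.18 on this scale, the nearest genes Adamts7 (0.17), Atxn1 (0.19) and Gpr137b (0.19) lay about as far from it as a flat profile. With 0.1 added in place of 1, Fzd1 stayed the gene most like Peg12, and Sipa1l2 ranked 2 for Ndn, whereas Gimap9 ranked 32 for Ndn and Ndn ranked 13 for Peg12. The genes named for Atp10a then ranked 5 (Gria3), 42 (Car13) and 54 (BC026585), and those named for Magel2 ranked 12 (Adamts7), 20 (Atxn1) and 15 (Gpr137b). These likenesses share the ko and wt difference for which all genes of the table were chosen.

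The listed cell type markers found in the table differed with genotype, as every gene of the table was chosen to do. The other markers of these lists were not analysed here. Of 15 neural markers 3 were in the table, Tubb3, Nefl and Elavl4, all higher in ko. Their summed level was 54.8 to 132 RPKM in ko libraries and 3.41 to 23.7 RPKM in wt libraries. The 2 of 12 smooth muscle and mesenchyme markers in the table, Acta2 and Pdgfrb, were lower in ko, summing to 18.7 to 74.2 RPKM in ko libraries and 123 to 648 RPKM in wt libraries. The 2 of 10 endothelial markers, Cldn5 and Clec14a, summed to 4.87 to 6.24 RPKM in ko libraries and 9.90 to 39.7 RPKM in wt libraries. These wt ranges hold differences between the wt lines. Acta2 was at 134 and 122 RPKM in iDam against 446 and 633 RPKM in BryGFP. Tubb3 was at 1.82 and 2.09 RPKM in iDam against 18.1 and 15.0 RPKM in BryGFP. Cldn5 went the other way, at 22.5 and 15.7 RPKM in iDam against 5.82 and 8.45 RPKM in BryGFP. The 4 of 11 erythroid markers in the table, Spnb1, Tfrc, Alas2 and Car2, were higher in ko, at 139 to 170 RPKM summed in ko libraries and 50.7 to 71.4 RPKM in wt libraries. The pluripotency marker Dppa4, 1 of 5 listed, was at 1.32 to 3.21 RPKM in ko libraries and 5.84 to 11.7 RPKM in wt libraries. None of these markers was at 0 in any library, and their part in the levels of Ndn, Magel2, Peg12 and Atp10a was not tested.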

How the data were processed

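Total RNA from 8 libraries was depleted of ribosomal RNA, per the labels' protocols. Per the submitters' processing notes, edgeR and mm9 were used. The aligner, counter and gene models are not given in the sources used here. As data, the authors deposited 1 table with log2 folds, mean log2 CPM, p-values and FDRs for ko against iDam and against BryGFP. In sign, the deposited log2 folds run wt over ko throughout the 622 genes. The deposited values per library had no unit in the header and were read as RPKM from their steps of whole reads. The implied gene lengths of 1652 (Ndn), 4662 (Magel2), 2640 (Peg12) and 5469 bases (Atp10a) gave the reads. The 1652 bases equal the RefSeq span of Ndn, whose GENCODE model covers 3694 bases. Intervals cover counting error only. No 50-base stretch of the 4 genes' GENCODE M21 transcripts occurred in a transcript of another gene.

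Column names give lines, and Ainv18ko was assigned as the ko line without Dam in its name. The 4 ko columns are repeated with identical values and were used once. Limma 3.58.1 in R 4.3.3 fitted 1 mean per line with a mean-variance trend over all 8 libraries. Benjamini-Hochberg adjustment ran over all genes fitted, and the fit was tested on simulated data. Alternatives were a pseudocount of 0.1, no filter, a filter of 0.5 RPKM, quantile normalization, each library left out and a replicate block. The fit of all genes for Magel2 and Atp10a was added after both were seen to miss the filter of 1 RPKM. The genes described, the imprinted and marker lists and the tests were chosen with earlier results of these data known. The named genes were the 4 genes, the 3 table genes most like each (1 is not reported here), and the imprinted genes on chromosome 7 with the largest and smallest change elsewhere. Coordinates are GRCm38, not the authors' mm9.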

Additional observations from a re-analysis of the deposited data

Results flagged for a closer look

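Magel2 in the iDam library numbered 1, at 0.553 RPKM, stood apart from the other wt libraries. Its gap to the next wt library was 0.861 of the range of the 4 wt libraries, above the 95% limit of Dixon's test for 4 values. The value rests on 137 reads, and its counting interval of 0.465 to 0.654 RPKM did not overlap that of the next library, 0.237 to 0.398 RPKM. Without it, Magel2 was at 34.3% of wt in ko cells in place of 27.7%, with a wt mean of 0.284 ± 0.0220 RPKM (SD, n = 3). It was the only library so marked among 8 groups of 4 libraries examined, and chance marks about 1 in 20 groups.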

How the results depend on the processing

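Ndn, Magel2, Peg12 and Atp10a stayed lower in ko in all 44 alternatives of the ko and wt difference. Most of these could not come out otherwise, because every ko library lay below every wt library. Leaving out a library, using line means or adding 0.1 could not change the sign, and only quantile normalization could. None of the line comparisons of these genes passed the threshold by limma in any alternative that kept all 8 libraries. The lowest adjusted p was 0.0516, for Peg12 in iDam over BryGFP under quantile normalization, in a range up to 0.592 over its alternatives. On the log2(RPKM + 1) scale, the ko minus wt difference under quantile normalization became -0.01 for Magel2 in place of -0.30, -0.11 for Atp10a in place of -0.54 and -0.34 for Peg12 in place of -0.94. That of Ndn was -0.93 in place of -0.89. Quantile normalization moved the median of the 360 genes from -0.83 to -0.28, a shift of 0.55, by making the libraries alike over genes chosen for differing. With 0.1 added, the values were -1.19 for Magel2, -1.44 for Atp10a and -1.29 for Peg12. Leaving out libraries moved the sign of iDamko over Ainv18ko for Ndn (-0.28 to 0.20), Peg12 (-0.28 to 0.25) and Atp10a (-0.20 to 0.0188), and of the difference of the ko effects for Ndn (-0.40 to 0.0818). Peg12 in iDamko over Ainv18ko was 0.0865 under quantile normalization. Of the genes past the filter of 1 RPKM, 48 to 94 passed for iDam against BryGFP with 1 library left out and 14 to 26 for the difference of the ko effects. For iDam over BryGFP, leaving out libraries gave 0.32 to 0.59 for Peg12, 0.04 to 0.29 for Magel2 and 0.09 to 0.41 for Atp10a. For the difference of the ko effects it gave -0.74 to -0.20 for Peg12, -0.34 to -0.10 for Magel2 and -0.50 to -0.18 for Atp10a. Magel2 in iDamko over Ainv18ko lay between -0.10 and -0.0039. The replicate block, from the numbers in the column names, gave 53 calls for the difference of the ko effects in place of 35. For iDam against BryGFP the block gave 110 calls in place of 91, and for iDamko against Ainv18ko 13 calls in both fits. Numbers did not pair all lines. Number 2 minus number 1 correlated at 0.41 to 0.69 across the 360 genes among iDamko, Ainv18ko and iDam. Between BryGFP and these lines the correlation was -0.20 to 0.01. Depth limits Magel2 most, with 11 to 137 reads per library.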
